A study of Homo sapiens with 9 samples.

Results

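Human chromosome 19 carries the largest gathering of zinc-finger genes in the genome, and this report describes 250 of them in RPMI-8402, a T-cell acute lymphoblastic leukaemia line. The members are the RefSeq GRCh38 protein-coding genes of chromosome 19 whose symbols begin with ZNF and a number. This rule uses only name and position, but it was set with earlier results of these data known. The members were 250 of the 20037 protein-coding genes examined, beside 1201 other protein-coding genes of chromosome 19. One H3K27ac ChIP-seq library, which maps acetylated lysine 27 of histone H3 at active promoters and enhancers, carries the genotype entry NKX2-1 and names no clone. Another 8 libraries were made with antibody ab76013 against the homeodomain factor NKX2-1. Of these, 4 came from clones with the genotype entry WT, for wild type (WT10 and WT13, with WT28 and WT30). The remaining 4 came from C12 and C15 together with S04 and S36, whose entry is NKX2-1 and which the design text gives as knockouts. The remaining lists are a combined NKX2-1 peak list and a list of WT-only regions. All are from the same cell line, each clone gave 1 library, and no other treatment is named.

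Most numbered ZNF genes encode DNA-binding proteins with a row of zinc fingers, and many also hold a KRAB domain. KRAB recruits TRIM28, which brings the histone methyltransferase SETDB1 and HP1 proteins to the bound DNA and silences transposable elements there. The genes multiplied by tandem duplication, so neighbours in a cluster are often close relatives, and their bodies are known for repressive chromatin over the last exons while the promoters can stay active.

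Of the 250 members, 60 (24.0%, 95% Wilson interval 19.1 to 29.7) had an H3K27ac peak within 1 kb of a gene end. The share over all protein-coding genes was 19%, and 191 of the 1201 other chromosome 19 genes had such a peak (15.9%, 13.9 to 18.1). Numbered ZNF genes of other chromosomes stood at 68 of 267 (25.5%, 20.6 to 31.0). There was 1 H3K27ac library, so no test over samples was possible, and the intervals cover only the number of genes counted. The difference between members and other chromosome 19 genes was 8.10 percentage points, and it was 3.16 points (12.4% against 9.24%) when only peaks with a −log10 q of 5 or more were kept. A gene without a peak was not called at the depth of this library, which is unknown.

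The marked members fell into 2 that stood apart and a tight remainder. ZNF792 (gene at 34956354 to 34964229, minus strand) had the strongest member peak, at 34961763 to 34964348, with a deposited enrichment of 17.4-fold over the peak caller's background. This was the highest value at any gene end on chromosome 19, and it had rank 25 among the 3811 genes with an end peak. The peak was 2586 bp wide, the widest among the members, and the nearest gene that is no member, GRAMD1A, lay 30379 bp away. ZNF428 (43607224 to 43619629, minus strand) followed with 11.8-fold at 43618860 to 43619949, 1090 bp wide, rank 245 of 3811. Every other marked member had 9.12-fold or less.

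The next values belonged to ZNF700 (9.12-fold), ZNF253 (9.10-fold), ZNF766 (8.67-fold), ZNF551 (8.63-fold), ZNF675 (8.54-fold), ZNF136 (8.30-fold) and ZNF562 (8.20-fold). ZNF146, whose product consists almost wholly of zinc fingers and lacks a KRAB domain, had 7.90-fold at its start (36215160 to 36215448). ZNF91 and ZNF93, known as repressors of SVA and LINE-1 retrotransposons, both had 7.82-fold, at 23394853 to 23395395 and 19900907 to 19901484. ZNF43 (7.72-fold), ZNF561 (7.69-fold), ZNF544 (7.48-fold), ZNF543, ZNF580 and ZNF737 (7.16-fold each), ZNF627 (7.03-fold) and ZNF850 (6.92-fold) complete the 20 strongest. The lowest of the 60 was ZNF726, with 4.72-fold.

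Peaks at member ends were mostly narrow and of moderate enrichment. Their median enrichment was 6.43-fold (quartiles 5.66 and 7.24), against 6.68-fold (5.75 and 8.97) at other chromosome 19 genes and 6.68-fold over all genes. Only 9 of the 60 members (15%) reached 8-fold, compared with 63 of 191 other chromosome 19 genes (33.0%) and 29.1% of all genes with an end peak. The median width was 398 bp in members, 519 bp in other chromosome 19 genes and 470 bp over all genes. The medians lay close together, and a smaller share of members was in the upper range. The members' ZNF relatives on other chromosomes had a median of 6.33-fold and 19.1% at 8-fold or more.

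**Figure D1:**
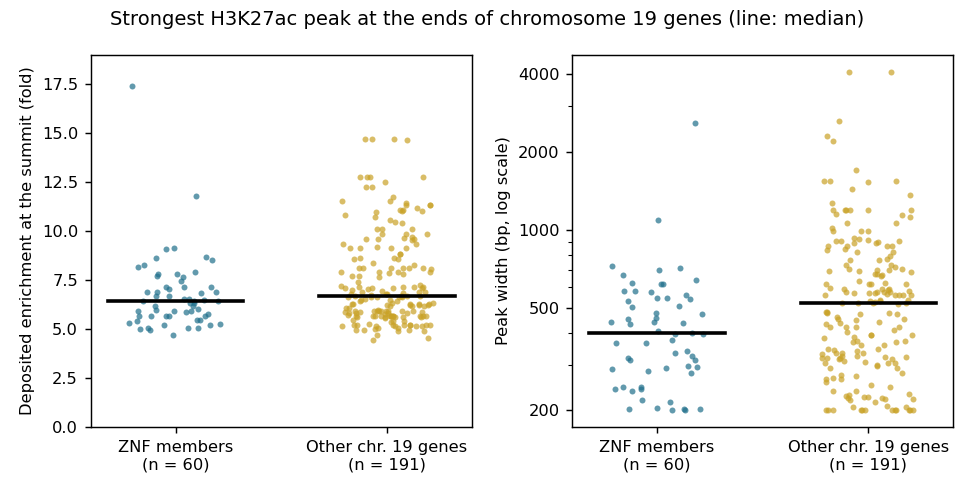
Each point is a chromosome 19 gene with an H3K27ac peak within 1 kb of an end, placed at the deposited enrichment (left, fold) or the width (right, bp, log scale) of its strongest such peak, with the median as a line. The 60 ZNF members sit between 4.72 and 9.12-fold except ZNF428 and ZNF792, while the 191 other genes spread further up to 14.7-fold.

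Acetylation lay at the 5′ end of these genes and just inside them. RefSeq windows gave a strand for 219 members, and 55 of these (25.1%) had a peak within 1 kb of the 5′ end while 1 (0.457%) had one within 1 kb of the 3′ end. That 1 was ZNF580, whose peak (55643920 to 55644353) lay beyond its 3′ end and within 1 kb of a listed start of ZNF581 (55643649). Among 966 other chromosome 19 genes with a strand, 144 (14.9%) had a 5′ peak and 26 (2.69%) a 3′ peak. Over all protein-coding genes with a strand, the shares were 19.2% and 1.89%. Numbered ZNF genes of other chromosomes had 26.6% and 0.459%, near the values of the members. The summit of the strongest peak was a median of 194.5 bp downstream of the nearest listed start in the 56 members that could be placed (quartiles 133 and 341 bp), and 344.5 bp downstream in 160 other chromosome 19 genes (106 and 594 bp). It fell within the first 500 bp downstream in 39 of 56 members (69.6%) and in 65 of 160 others (40.6%). Over all protein-coding genes the median was 259 bp downstream, with 49.0% of summits in those 500 bp. For numbered ZNF genes of other chromosomes the values were 196 bp, close to the members, and 52.5%. In 4 members, ZNF43, ZNF254, ZNF581 and ZNF580, the nearest listed start of the gene was over 2 kb from the summit.

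**Figure D2:**
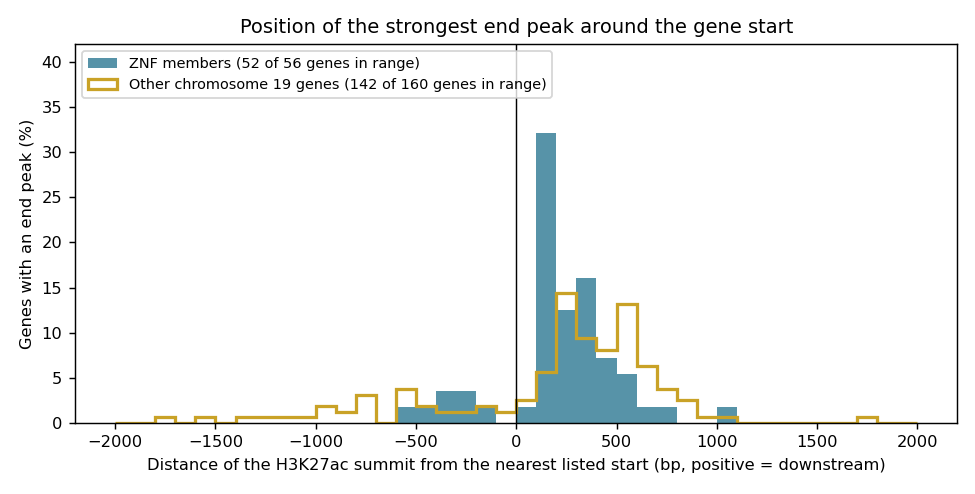
Histogram, in 100 bp steps, of the distance from the nearest listed start to the summit of the strongest end peak, as a percentage of the genes with a peak and a listed start; filled bars are ZNF members and the outline other chromosome 19 genes. Member summits gather between the start and 500 bp downstream (39 of 56), and the other genes extend further on both sides.

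Few members, like few other chromosome 19 genes, had a peak deeper in the gene. A peak overlapped the body of 66 members (26.4%, Wilson interval 21.3 to 32.2), with 21.2% over all protein-coding genes and 201 of 1201 other chromosome 19 genes (16.7%). Once the 1 kb at either end was left out, the shares were 6% of members and 7.74% of other chromosome 19 genes, so the order turned. These shares are not adjusted for gene length. The median length was 23254.5 bp in members and 12694 bp in other chromosome 19 genes. Per 100 kb of whole gene body, ends included, the members held 1.00 distinct peaks, the other chromosome 19 genes 1.25 and all genes 0.556.

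A body peak without an end peak was found in 11 members (4.40%), close to the 4.73% of all protein-coding genes, and in 3.33% of other chromosome 19 genes. Most of the 11 peaks lay at a start inside the outermost gene span. Of the 10 with a listed start, 9 had the summit within 1 kb of one. The strongest lay in ZNF69 (11925135 to 11925716, 9.12-fold) and was the peak at the start of the overlapping gene ZNF700. The ZNF565 peak (36215160 to 36215448, 7.90-fold) was also the end peak of ZNF146 and lay near listed starts of both genes. Its summit was 209 bp upstream of a ZNF565 start and 187 bp downstream of the ZNF146 start. ZNF610 had 7.71-fold at 52336353 to 52336894, ZNF574 6.95-fold at 42075394 to 42075682 and ZNF420, the apoptosis regulator also called APAK, 6.92-fold at 37078616 to 37078946. Peaks shared between overlapping or adjoining genes cannot be credited to one of them.

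The remaining 179 members (71.6%) had no H3K27ac peak at an end or in the body, against 76.3% of all protein-coding genes. The 5 longest were ZNF536, a factor known from the developing brain (487995 bp, nearest peak 509964 bp away), ZNF577 (83510 bp, 120268 bp), ZNF568 (81601 bp, 66292 bp), ZNF676 (81216 bp, 327023 bp) and ZNF331, an imprinted gene (77035 bp, 608211 bp). ZNF274, which is known to bind the 3′ exons of other ZNF genes and to recruit SETDB1 there, was also without a peak; it was singled out after its values were seen. Gene length was similar in marked members (median 26.6 kb, n = 60) and unmarked ones (22.6 kb, n = 190).

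Members were grouped into 14 clusters, defined as runs of 3 or more members with gaps of at most 250 kb, which held 237 members over 12.8 Mb. The share of members with an end peak ranged from 0 to 100% between clusters. The high end lay toward the centromere on the short arm. In the cluster from ZNF675 to ZNF254 (23652801 to 24129968) all 4 of 4 members were marked (100%, Wilson interval 51 to 100): ZNF675, ZNF254, ZNF681 and ZNF726. The cluster from ZNF101 to ZNF486 (19668153 to 20200488) had 4 of 8 (50%, 21.5 to 78.5), namely ZNF253, ZNF93, ZNF486 and ZNF101. The 25 members from ZNF737 to ZNF91 (20530276 to 23395471) had 11 (44.0%, 26.7 to 62.9), with a median of 6.43-fold.

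Low shares were found on both arms. From ZNF575 to ZNF180 (43530835 to 44500522) only ZNF428 among 23 members was marked (4.35%, 0.772 to 21.0). From ZNF175 to ZNF331 (51571283 to 53580269), the second largest cluster, 5 of 41 were marked (12.2%, 5.32 to 25.5): ZNF766, ZNF480, ZNF701, ZNF83 and ZNF615. From ZNF787 to ZNF835 it was 1 of 10, ZNF583. The clusters from ZNF554 to ZNF77, on the short arm, and from ZNF546 to ZNF780A had 0 of 5 and 0 of 3, and such small numbers leave intervals up to 43.4% and 56.1%.

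Other clusters lay between these. The largest, from ZNF264 to ZNF446 near the end of the long arm (57191500 to 58489533), had 12 of 43 (27.9%, 16.7 to 42.7), led by ZNF551. From ZNF565 to ZNF573 it was 9 of 26 (34.6%, 19.4 to 53.8), from ZNF628 to ZNF580 3 of 7, from ZNF317 to ZNF846 4 of 12, from ZNF653 to ZNF791 4 of 25 and from ZNF302 to ZNF792 1 of 5. Taken by arm, 28 of the 84 members from ZNF554 to ZNF254 were marked (33.3%, 24.2 to 43.9) and 32 of the 166 from ZNF536 to ZNF446 (19.3%, 14 to 25.9). Whether these clusters differ beyond library error could not be tested with 1 library. Outside the clusters, ZNF414 was the 1 marked member of 13.

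**Figure D3:**
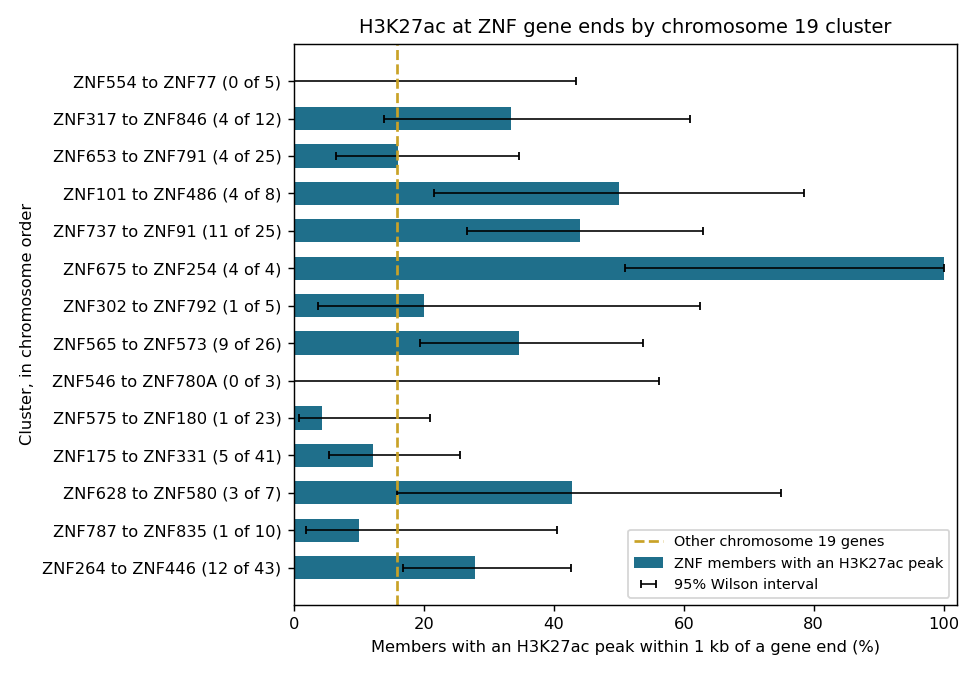
Bars give the percentage of ZNF members in each of the 14 clusters, in chromosome order, with an H3K27ac peak within 1 kb of a gene end; whiskers are 95% Wilson intervals over members and the dashed line is the 15.9% of other chromosome 19 genes. The clusters from ZNF101 to ZNF254 lie at 44.0 to 100% and that from ZNF575 to ZNF180 at 4.35%.

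Within the cluster spans, most H3K27ac peaks lay at an end of a ZNF member. Of 92 H3K27ac peaks there, 61 (66.3%) lay within 1 kb of a member's end. Peaks at gene ends were also common elsewhere. Chromosome 19 held 353 peaks outside the spans, and its other genes outside the spans had 192 distinct end peaks. The 63 genes of other names inside the spans had 8 with an end peak (12.7%, Wilson interval 6.58 to 23.1), against 59 of the 237 clustered members (24.9%, 19.8 to 30.8). At 3 of the member peaks another gene also ended within 1 kb: RPSA2 beside ZNF681, FIZ1 beside ZNF524 and LOC122539214 beside ZNF83. There were 7 divergent member pairs, with a minus-strand start at most 1 kb before a plus-strand start. ZNF470 and ZNF470-DT, whose nearby starts face each other, are not counted. Both genes shared an end peak in 2 pairs, ZNF529 with ZNF382 (36604900 to 36605146, 5.94-fold) and ZNF790 with ZNF345 (36849839 to 36850040, 5.08-fold), and neither had one in 3 pairs.

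A short sequence was more frequent in the members' promoter windows than in those of other genes, though most member windows lacked it. Windows run from 250 bases before to 50 after a RefSeq start (GRCh38.p14), and 271 windows were listed for 219 members. The ETS core CCGGAAG, searched on both strands, was found in 111 of these windows (41.0%), in 168 of 1277 windows of other chromosome 19 genes (13.2%) and in 12.8% of 22183 windows of all protein-coding genes. ETS factors are a large family of transcription factors with many members in blood cells. Of 125 matches, 88.8% were centred within 100 bp of the start, at a median of −15 bp. The letters were chosen after the peak results were known, and a match is not a bound site. Tandem duplicates share sequence, so the windows are not independent. The core was unevenly spread, from 0 of 5 members in the cluster from ZNF554 to ZNF77 to 4 of 4 from ZNF675 to ZNF254. Windows of numbered ZNF genes of other chromosomes were not compared.

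The windows of 5 members are printed, 5′ to 3′ on the gene strand, with the ETS core or its reverse complement in capitals. The first 3 are those of the members with the strongest peaks whose window holds the core: ZNF766 (chr19:52269337-52269636, plus strand), ZNF551 (chr19:57681727-57682026, plus strand) and ZNF675 (chr19:23687163-23687462, minus strand).

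ZNF766: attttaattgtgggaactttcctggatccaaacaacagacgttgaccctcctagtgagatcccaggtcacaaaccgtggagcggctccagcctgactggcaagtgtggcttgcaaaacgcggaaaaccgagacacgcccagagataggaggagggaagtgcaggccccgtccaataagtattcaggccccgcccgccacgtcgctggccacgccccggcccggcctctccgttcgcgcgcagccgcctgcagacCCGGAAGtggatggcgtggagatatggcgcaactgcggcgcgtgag

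ZNF551: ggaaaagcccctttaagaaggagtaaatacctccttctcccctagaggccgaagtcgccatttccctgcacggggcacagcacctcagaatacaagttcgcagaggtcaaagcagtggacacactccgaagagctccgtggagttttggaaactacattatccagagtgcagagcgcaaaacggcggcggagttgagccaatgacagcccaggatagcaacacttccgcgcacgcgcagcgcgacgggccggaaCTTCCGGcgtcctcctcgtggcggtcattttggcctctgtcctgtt

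ZNF675: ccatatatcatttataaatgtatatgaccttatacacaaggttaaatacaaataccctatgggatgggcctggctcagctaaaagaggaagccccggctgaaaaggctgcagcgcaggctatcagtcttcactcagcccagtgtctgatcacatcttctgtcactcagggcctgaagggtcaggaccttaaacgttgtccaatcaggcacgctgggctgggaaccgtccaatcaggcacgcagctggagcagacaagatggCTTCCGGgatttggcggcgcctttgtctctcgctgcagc

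In all 3 the core is centred 7 to 14 bp downstream of the start, which follows the first 250 bases. The other pair is the most alike pair of windows of which only 1 lay at a peak: ZNF814 (chr19:57888988-57889287, minus strand) and ZNF587B (chr19:57830049-57830348, plus strand).

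ZNF814: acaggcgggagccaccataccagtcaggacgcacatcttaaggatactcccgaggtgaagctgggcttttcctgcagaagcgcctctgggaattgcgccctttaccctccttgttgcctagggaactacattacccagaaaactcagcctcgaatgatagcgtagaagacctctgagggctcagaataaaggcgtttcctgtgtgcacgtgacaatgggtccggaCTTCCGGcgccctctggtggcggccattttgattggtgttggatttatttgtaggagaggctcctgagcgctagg

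ZNF587B: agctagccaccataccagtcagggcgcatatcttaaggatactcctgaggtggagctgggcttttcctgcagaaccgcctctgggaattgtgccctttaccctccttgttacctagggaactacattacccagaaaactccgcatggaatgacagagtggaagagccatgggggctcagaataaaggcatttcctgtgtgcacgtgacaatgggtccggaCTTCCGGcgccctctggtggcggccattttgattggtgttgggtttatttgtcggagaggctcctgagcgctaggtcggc

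These windows had 31 edits between them over 300 bases (89.7% identity) and both hold the core, centred 22 and 27 bp upstream of the start. ZNF814 had a peak of 5.58-fold (57888499 to 57888959, −log10 q 3.67) with its summit 389 bp downstream of the start, and ZNF587B had none.

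The share of marked members was close with and without the core. An end peak was called at 26 of the 105 members with the core in a window (24.8%) and at 30 of the 114 without it (26.3%). Windows lie at any listed start and end peaks at the outermost gene ends, so the 2 can lie apart. ZNF814, for example, counts here as unmarked. Window by window, the core was in 36.1% of member windows with a peak within 1 kb of the start and in 42.7% of those without. By cluster, the core was in 16 of 19 members from ZNF737 to ZNF91 and in 4 of 4 from ZNF675 to ZNF254, which were rich in peaks. It was also in 24 of 34 from ZNF175 to ZNF331, where 5 of 41 were marked, and in 2 of 24 from ZNF653 to ZNF791. Likeness to another member's window was not lower in marked windows: the median identity to the nearest other member was 56.2% in 72 windows with a peak within 1 kb of the start and 54.7% in 199 without, and 19.4% and 11.1% reached 80%.

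**Figure D4:**
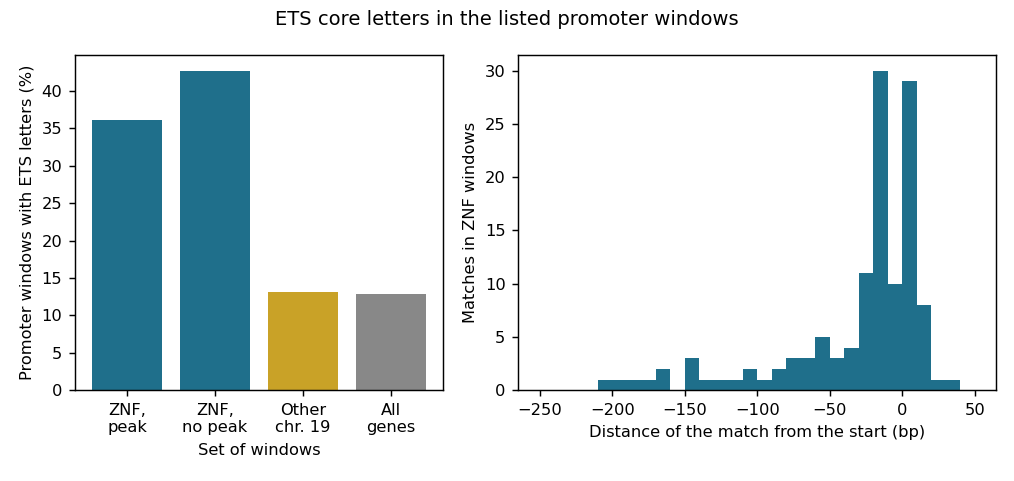
Left, percentage of 300-base promoter windows that hold CCGGAAG on either strand: 36.1% of ZNF windows with an H3K27ac peak within 1 kb of the start, 42.7% of those without, 13.2% for other chromosome 19 genes and 12.8% for all genes. Right, number of matches in ZNF windows by distance of the match from the start in 10 bp steps, with most beside the start.

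Base composition was close in marked and unmarked members. The median number of CpG dinucleotides per window was 21.5 in member windows with a peak and 20 in those without, and 29 and 19 in other chromosome 19 windows. G and C made up a median of 61.0% and 59.7% of member windows with and without a peak, and 67.0% and 63.7% of the others. The RUNX core TGTGGT was in 15.1% of member windows and 11.3% of all windows, and the NK2-type core CAAGTG, of the homeodomain class to which NKX2-1 belongs, in 6.64% and 10.4%. The NRF1 consensus palindrome was in 2.95% and 1.50%, and TATAAA in 2.58% and 9.47%; all were searched on both strands.

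No NKX2-1 antibody peak lay near any member in either genotype. The number of the 250 members within 10 kb of a peak was 0 in each of C12, C15, S04, S36, WT10, WT13, WT28 and WT30, and 0 in the combined and WT-only lists. A count of 0 of 250 allows a share of up to 1.20%. The background was low: of all protein-coding genes, 2.59% were that near to a peak of any of the 8 libraries, 0.744% to one in the combined list and 1.03% to a WT-only region. For the 1201 other chromosome 19 genes the counts were 42 (3.50%), 9 (0.749%) and 18 (1.50%). The 0 was not particular to the members. All 3 counts were also 0 for the 63 genes of other names inside the cluster spans. The 42 were all among the 1138 other chromosome 19 genes outside the spans. Numbered ZNF genes of other chromosomes had 7, 3 and 3 of 267.

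Library by library, the other chromosome 19 genes gave the scale. In the knockout libraries 4 (C12), 5 (C15), 2 (S04) and 23 (S36) of the 1201 lay within 10 kb of a peak, and in the WT libraries 21 (WT10), 0 (WT13), 7 (WT28) and 1 (WT30). S36 and WT10 were high, and the genotypes overlapped. Chromosome 19 held only 1 to 17 peaks per library. Because the members' counts were 0 in all 8 libraries, WT and knockout means were both 0 (n = 4 each) for members near a peak, for peaks near a member and for the share of chromosome 19 peaks near a member (exact permutation p = 1 for each, two-sided, and 1 after Benjamini-Hochberg adjustment over 3 tests). These p-values rest on counts with no spread and show nothing about sites too weak to be called. The smallest p possible with 4 against 4 libraries would be 0.0286.

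**Figure D5:**
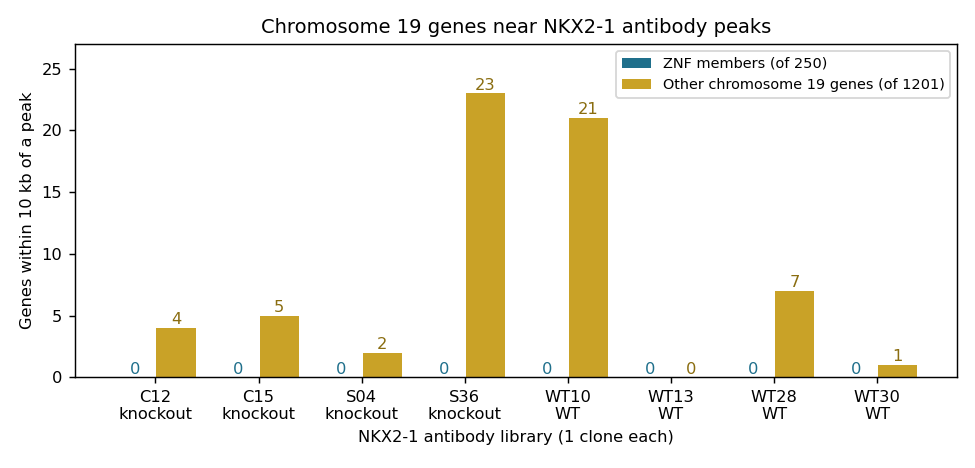
Bars give, for each NKX2-1 antibody library, the number of chromosome 19 genes within 10 kb of a peak, for the 250 ZNF members and the 1201 other protein-coding genes. Members are at 0 in all 8 libraries, and the other genes range from 0 in WT13 to 23 in S36.

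The peaks of all 8 libraries merged into 31 regions on chromosome 19, of 1643 in the genome, and 0 of the 31 fell within the 14 cluster spans. The nearest to a member was called in WT10 and WT28 (45117215 to 45117506), lay within PPP1R37 and was 40.7 kb from ZNF296. The next (57137806 to 57138185) was called in the knockout libraries C12, S04 and S36, lay within the zinc-finger gene ZIM3 and was 53.3 kb from ZNF264. In the combined list the peak at 9808930 to 9809130 came nearest, 22.8 kb from ZNF846. The median distance from a member to the nearest peak of any list was 1027 kb (lowest 22.8, highest 3781 kb), and 501 kb for other chromosome 19 genes. Over the 31 regions, the smallest p of Fisher's exact test on the libraries with a call was 0.143. With 4 against 4 libraries that test cannot go below 0.0286, which adjustment over 1643 regions would carry past 0.05 for any single region, so it cannot show whether a region differed.

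The genes through which KRAB proteins silence were looked up in the same list. Of 24 genes for KRAB corepressors and heterochromatin, 14 had an H3K27ac peak at an end (58.3%), where the share over all protein-coding genes was 19%, with a median of 7.99-fold. TRIM28, the central KRAB corepressor, lies on chromosome 19 beyond the last cluster (58544064 to 58550715) and had 5.70-fold. Among the HP1 genes, CBX5 and CBX3 had 12.8 and 10.3-fold and CBX1 had no end peak. The histone deacetylase gene HDAC2 had 9.61-fold and HDAC1 none. In the HUSH silencing complex TASOR had 9.12-fold, PPHLN1 6.19-fold and MPHOSPH8 none. The DNA methyltransferase gene DNMT1 had 8.57-fold. SETDB1, SUV39H1, SUV39H2, EHMT1 and EHMT2, the methyltransferases of the list for lysine 9 of histone H3, had no end peak. The body of SUV39H1 held 1 peak. Of the 24 genes, 1 lay within 10 kb of a peak of any NKX2-1 antibody library and 0 near a combined-list peak.

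The labelled T-cell origin was checked against lineage genes. Of 12 T-lineage genes, 6 had an end peak (LCK, CD247, CD3E, CD3D, CD3G and BCL11B, 6.92 to 11.8-fold), while CD2, CD5, CD7, RAG1, TCF7 and PTCRA had none. Of those without, TCF7 held 5 peaks in its body and CD5 held 2. Of the B-lineage, myeloid and erythroid markers, 0 of 6, 0 of 6 and 0 of 4 had one, although the body of SPI1, a myeloid factor gene, held 3 peaks. The H3K27ac list held 445 peaks on chromosome 19, and the NKX2-1 antibody lists held 742 to 1144 peaks each over chromosomes 1 to 22, X and Y.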

How the data were processed

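ChIP-seq peak lists of 9 libraries and 2 lists of the whole series were used; the submitters' processing notes name MACS2 as well as Bowtie2, SAMtools, FastQC, deepTools and hg38, with versions, parameters and controls not given in the sources used here. Each peak in the deposited lists has a ratio (fold enrichment at the summit), a −log10 q-value, and a −log10 p-value and a score that were not used, all values of the authors; read depth is unknown, so no interval for it can be given. Positions were made 1-based and chromosomes 1 to 22, X and Y kept. Genes and promoter windows came from RefSeq tables (GRCh38.p14); a start was listed for 219 of 250 members. Overlap counted from 1 bp. Shares carry 95% Wilson intervals, which like the limit of 3 counts for a 0 cover counting error over genes only. WT and knockout libraries were compared with two-sided exact permutation tests over 70 assignments, and union regions with Fisher's exact test, with Benjamini-Hochberg adjustment. p-values measure the spread between clones, which may be technical. Named members are the 20 with the strongest end peaks, those near an NKX2-1 antibody peak, the 5 strongest with body peaks only and the 5 longest without a peak. The members, gene lists and tests were chosen with earlier results of these data known. The 250 include 4 compound symbols (3 read-through genes and ZNF470-DT). The functions were tested on simulated intervals. Python 3.11.15, pandas 2.3.3, SciPy 1.17.1 and edlib were used.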

Additional observations from a re-analysis of the deposited data

Results flagged for a closer look

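Among the 4 knockout libraries, S36 stood apart on chromosome 19, its gap to the nearest other library exceeding Dixon's 95% critical value. It held 17 chromosome 19 peaks, where C12 and C15 had 4 each and S04 had 2. It also had 23 other chromosome 19 genes within 10 kb of a peak, where the other knockout libraries had 2 to 5. Chance flags about 1 group in 20. The members' count was 0 with and without S36.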

How the results depend on the processing

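The share of members with an end peak stayed between 22 and 25.6% in 6 settings, and remained above that of other chromosome 19 genes in each. These were windows of 500 bp and 2 kb, summits in place of overlap, and peaks of 5-fold or more. The others were the outermost 5′ end only and wider zinc-finger symbols. With all listed starts counted, also those inside the gene span, 62 of 219 members had a peak within 1 kb of one. Among other chromosome 19 genes it was 161 of 966. With peaks of −log10 q of 5 or more it was 12.4%, and the share with a body peak 14.4% instead of 26.4%; fewer peaks enter by construction. Without the 1 kb at either end the body share was 6%, and the difference from other chromosome 19 genes turned from 9.66 to −1.74 percentage points. Cluster gaps of 100 and 500 kb gave 22.7 and 25.1% of clustered members. Leaving out the 4 compound symbols, chosen after seeing the data, gave 24.4 and 26.8%. At 50 kb in place of 10 kb, 1 member and 1 union region came near a peak of a library, with 2 combined-list peaks and 1 WT-only region within that distance of a member; the other NKX2-1 settings run, leaving out each library in turn included, gave 0. No paired analysis was possible because no label ties a WT clone to a knockout clone. Depth is unknown, so weak sites may be missed, and close duplicates can lose reads that map to several places, which was not tested.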
